A study of Mus musculus with 16 samples.

Results

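The miRNA content of dorsal skin was compared between non-irradiated Ppard-/- mice (KO), which lack the nuclear receptor PPARβ/δ, and their non-irradiated Ppard+/+ littermates (WT). The comparison used 8 of the 16 arrays of the series, 4 KO and 4 WT, all on one slide. It covered the mouse miRNAs that were detected on 4 of 4 arrays of either genotype, which were 220 of the 567 on the array. Of these, 197 were detected on all 8 arrays, 21 reached 4 of 4 in KO alone and 2 reached it in WT alone. The other 8 arrays of the series held skin of the same genotypes after 12 weeks of repeated UVB exposure (70 mJ/cm2 each time), and they enter here only where the genotype difference is set beside that after irradiation. By the study's methods, the animals were hairless albino females aged 8 to 12 weeks on a mixed background (SKH1-C57/Bl6-SV129). The non-irradiated ones were age-matched and sham manipulated, and the methods do not state the age at which skin was taken. The label gives the genotype of the whole animal and whole skin was profiled, so a signal belongs to no single cell type, and fewer cells of a type cannot be told apart from less RNA per cell. Since the arrays measure no mRNA, genotype could not be checked from Ppard itself, and no label explains the replicate numbers.

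PPARβ/δ is a transcription factor activated by fatty acids that acts in keratinocytes, muscle, fat and immune cells. A miRNA is a short RNA cut from a hairpin precursor, and it lowers the output of mRNAs that pair with its seed, which is bases 2 to 8. Several miRNAs are used as marks of a cell type: miR-1, miR-133 and miR-206 of muscle, miR-203, miR-205 and the miR-200 family of epithelium, miR-126 of endothelium, and miR-142, miR-223 and miR-342 of blood-borne immune cells.

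The sequences of the miRNAs on which the comparison turned are given first, 5′ to 3′ with the seed in capitals, from RefSeq on GRCm38.p6. Of 29 mature miRNAs looked for there, 25 gave a sequence and 4 did not (miR-126-5p, miR-378, miR-378* and miR-532-5p). MiR-1 and miR-133a were not looked for, and all 6 are named only. The muscle miRNAs miR-133b and miR-206 lay 3776 bases apart on chromosome 1 and carry different seeds.
miR-133b: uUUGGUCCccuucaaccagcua
miR-206: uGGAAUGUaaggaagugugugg
The immune cell miRNAs came from 4 precursors with 4 different seeds.
miR-342-3p: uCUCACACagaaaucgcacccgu
miR-146a: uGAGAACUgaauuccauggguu
miR-155: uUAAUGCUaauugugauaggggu
miR-223: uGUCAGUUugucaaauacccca
MiR-221 and miR-222, neighbours 596 bases apart on chromosome X, share the seed GCUACAU.
miR-221: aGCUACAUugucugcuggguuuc
miR-222: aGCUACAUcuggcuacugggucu
MiR-141 and miR-200a, epithelial miRNAs of chromosomes 6 and 4, share the seed AACACUG.
miR-141: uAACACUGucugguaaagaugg
miR-200a: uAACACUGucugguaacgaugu
The sequences of 4 further miRNAs, each described on its own, follow.
miR-21: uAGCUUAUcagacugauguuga
miR-126-3p: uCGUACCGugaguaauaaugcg
miR-193: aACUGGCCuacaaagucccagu
miR-196a: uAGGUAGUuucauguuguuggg

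The files place miR-342-3p at chr12:109896896-109896912, miR-21 at chr11:86397622-86397641, miR-126-3p at chr2:26446926-26446943, miR-221 at chrX:18723433-18723451 and miR-133b at chr1:20672918-20672936 on mm9. The files list 1 position for miR-196a, chr11:96126501-96126522, though RefSeq has copies on chromosomes 11 and 15.

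Signals are given as log2 of the quantile-normalized total signal of a miRNA, with a floor at 4.28, and a difference is KO minus WT on that scale. No difference between KO and WT no UV skin passed the adjusted threshold. With limma and Benjamini-Hochberg adjustment, 0 of the 228 miRNAs tested had an adjusted p under 0.05 (0%), and the lowest adjusted p was 0.0552. At an unadjusted p under 0.05, 34 of the 220 miRNAs were found, 16 higher and 18 lower in KO, where 7.02% and 8.77% of all tested miRNAs were higher and lower at that level. The groups did not overlap for 5 of the 220 (2.63% of all tested), 3 with KO above WT and 2 with KO below. The difference exceeded 1.5-fold for 12 miRNAs, 5 higher and 7 lower, and it stayed under 0.25 for 168. The 95% interval reached a median of 0.30 to either side of the difference, and it lay within 1.5-fold either way for 147 of the 220 miRNAs and within 2-fold for 194. The 168, 147 and 194 include miRNAs at the floor on all 8 arrays, such as miR-200b*. There the floor sets the difference to 0 and the interval to -0.03 to 0.03, so equality was not measured. In all, 12 of the 220 had a difference of 0.

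**Figure D1:**
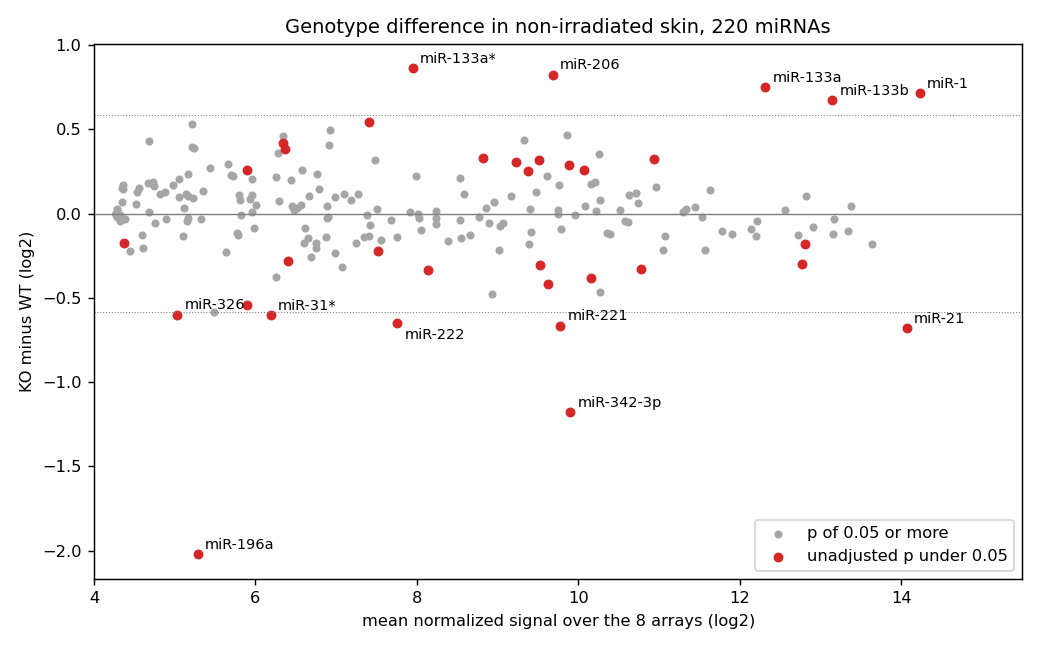
KO minus WT difference (log2, vertical axis) against the mean normalized signal over the 8 no UV arrays (log2, horizontal axis), with a point for each of the 220 miRNAs, red for an unadjusted p under 0.05 and dotted lines at 1.5-fold. The 12 named points lie beyond 1.5-fold, and the 5 above the upper line are miR-1, miR-133a, miR-133a*, miR-133b and miR-206.

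The number of miRNAs past the threshold depended on WT replicate 2. This array correlated better on average with the KO arrays (r = 0.990) than with the other WT arrays (r = 0.984), and its closest array was KO replicate 4 (r = 0.997). Of the 8 arrays, 5 had their closest array in the other genotype, and 3 correlated better on average with the other genotype: WT replicate 2, KO replicate 4 (r = 0.987 against 0.986) and, by a smaller margin, WT replicate 3. WT replicate 2 was the WT array nearest to KO, ties included, for 28 of the 34 miRNAs with an unadjusted p under 0.05. KO replicate 4 was nearest to WT for 20 of them, and KO replicate 2 for 17. Without WT replicate 2, 17 of the 228 miRNAs passed the adjusted threshold, 8 higher and 9 lower in KO, and 15 of them were among the 220. Without KO replicate 4, 5 passed, 4 of them among the 220. The labels were kept as deposited, and values without either array are given below for the named members whose calls they changed. Both arrays were singled out in these data for lying near the other genotype. Leaving out such an array tends to widen the differences and narrow the spread, so the lower p-values are a description and no support.

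The arrays also differed in brightness. The summed signal was 325873 ± 59499 (SD, n = 4) units in KO and 219156 ± 38792 in WT, a ratio of 1.49 (exact permutation test, two-sided p = 0.0571, adjusted p = 0.229 over 4 array measures, smallest possible p = 0.0286). An average of 246 mouse miRNAs was detected in KO and 225 in WT (exact permutation p = 0.114). Local background was 64.5 ± 1.03 in KO and 64.7 ± 1.09 in WT (SD, n = 4). Before normalization the median difference of the 220 miRNAs was 0.53, and after it 0.01, so every difference below is relative to that shift. Its part in the results was not tested.

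The muscle miRNAs had the highest differences. All 5 miRNAs of the skeletal muscle list (miR-1, miR-133a, miR-133a*, miR-133b and miR-206) were higher in KO, each at an unadjusted p under 0.05. Of all 220, 111 were higher. By the listed positions miR-1 lay 2572 bases from miR-133a, whose other strand is miR-133a*, and miR-206 lay 3776 bases from miR-133b. The 5 are therefore not independent readings. The median of the 5 was 0.75 beside 0.01 for all 220. The list's median was 0.75 with scaling to the 75th percentile and 1.29 with no normalization. MiR-133b, of a family that acts in muscle growth and differentiation, read 12.62, 13.36, 12.53 and 12.72 in WT replicates 1 to 4. In KO it read 13.44, 13.36, 13.88 and 13.25. WT replicate 2 stood at the level of KO replicate 2, above KO replicate 4, and the other WT arrays lay below all KO arrays. The difference was 0.67 ± 0.17 (SE), a ratio of 1.60, with an adjusted p of 0.0635 in limma.

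MiR-133a* is the less abundant strand of the miR-133a hairpin, and it had the lowest p of the muscle miRNAs. It read 7.32, 8.06, 7.05 and 7.63 in WT and 8.60, 8.28, 8.62 and 8.01 in KO, so only WT replicate 2 reached into the KO range. Its difference was 0.86 ± 0.19 (SE, limma adjusted p = 0.0552), and 0.99 without KO replicate 4 (limma adjusted p = 0.0197). With scaling to the 75th percentile it was 0.91 (limma adjusted p = 0.0429), one of 3 miRNAs past the threshold under that scaling (1.32% of those tested), with miR-326 and miR-532-5p. MiR-133a, the abundant strand, read 11.73, 12.44, 11.50 and 12.09 in WT and 12.53, 12.53, 13.25 and 12.44 in KO. Its difference was 0.75 ± 0.19 (SE, limma adjusted p = 0.0635), and the lowest KO array only tied with WT replicate 2. With scaling to the 75th percentile, WT replicate 2, at 7502 units, exceeded KO replicates 1 and 4, at 6028 and 6613.

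MiR-206, a miRNA of developing and regenerating muscle, read 9.60, 9.11, 9.05 and 9.32 in WT and 10.57, 10.33, 9.88 and 9.60 in KO. Here WT replicate 1 was the highest WT array, level with KO replicate 4, and the difference was 0.83 ± 0.30 (SE, limma adjusted p = 0.202). MiR-1, which promotes muscle differentiation, was the brightest miRNA on every KO array, and normalization by rank gave all 4 the value 14.59. It read 13.58, 14.59, 13.44 and 13.88 in WT, a difference of 0.71 ± 0.20 (SE, limma adjusted p = 0.0686). Scaling to the 75th percentile keeps the spread that ranks remove. On that scale miR-1 was 15303 ± 5874 (SD, n = 4) units in WT and 23763 ± 5173 in KO, and WT replicate 2, at 23831, exceeded KO replicates 1 and 4, at 20854 and 18979.

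Without WT replicate 2, 4 of the 5 muscle miRNAs passed the adjusted threshold in limma, all but miR-206. The differences were then 0.95 for miR-1 (adjusted p = 0.000599), 0.92 for miR-133a (adjusted p = 0.00685), 1.04 for miR-133a* and 0.86 for miR-133b (adjusted p = 0.00167 for both). As a share of an array's summed signal, the 5 muscle miRNAs made up 16.9% ± 3.21 (SD, n = 4) in KO and 10.7% ± 3.22 in WT. The WT shares were 9.20%, 15.3%, 7.86% and 10.5%, and the KO shares 16.4%, 16.0%, 21.4% and 13.8%. WT replicate 2 alone among the WT arrays lay within the KO range. The epidermal list, for comparison, made up 10.4% ± 1.06 of the signal in KO and 10.1% ± 0.595 in WT.

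**Figure D2:**
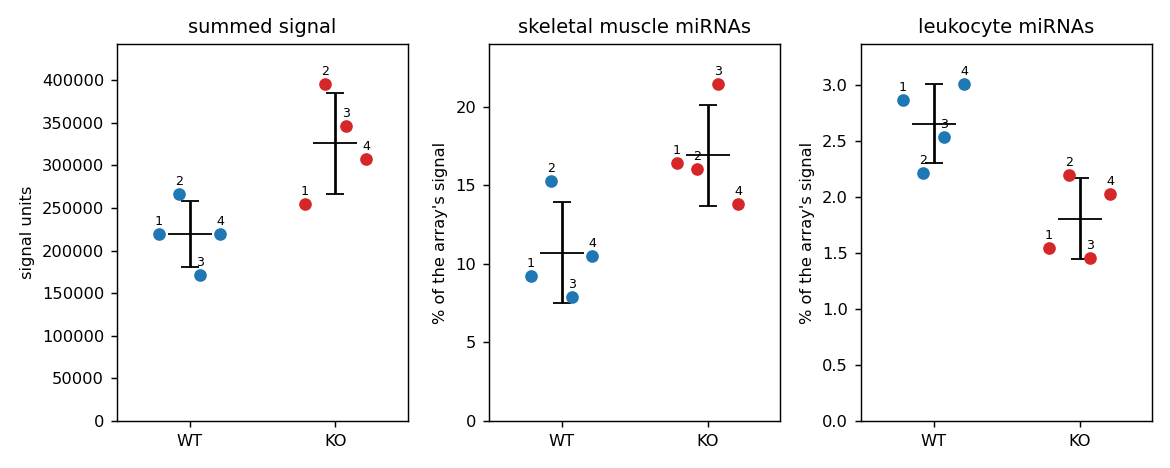
Summed signal (signal units) and the share of it in the skeletal muscle and leukocyte lists (%) on each no UV array, with the replicate number at each point and the mean and SD as bars (n = 4). KO arrays had 13.8% to 21.4% of their signal in muscle miRNAs against 7.86% to 15.3% in WT, and 1.46% to 2.19% in leukocyte miRNAs against 2.21% to 3.00%.

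Leukocyte miRNAs lay on the other side. All 9 members of the list were lower in KO, where 97 of all 220 were lower. Of the 9, 4 had an unadjusted p under 0.05 (miR-342-3p, miR-155, miR-146a and miR-223). Only miR-342-3p and miR-223 of these are among the marks of immune cells named above. The median was -0.33, and with no normalization it turned to 0.17, below the 0.53 of all 220. The largest difference was that of miR-342-3p, a miRNA of lymphoid and myeloid cells from an intron of Evl. It read 10.97, 9.80, 10.65 and 10.53 in WT and 8.82, 9.85, 8.91 and 9.65 in KO. The groups overlapped only through WT replicate 2, which lay just below KO replicate 2. The difference was -1.18 ± 0.28 (SE), with a KO to WT ratio of 0.442 and a limma adjusted p of 0.0565. It was -1.41 (limma adjusted p = 0.00602) without WT replicate 2 and -1.29 (limma adjusted p = 0.0480) without KO replicate 4. The other strand of the hairpin, miR-342-5p, was at or next to the floor on all 8 arrays, and its difference of -0.02 came from WT replicate 1 alone. It had a detection call on 4 of 4 WT arrays and 3 of 4 KO arrays. As it passed the filter through WT alone, its place among the 9 is no support for a difference.

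MiR-155, induced in activated lymphocytes and macrophages, read 6.43, 5.62, 6.33 and 6.30 in WT and 5.31, 5.91, 5.51 and 5.79 in KO. All KO arrays lay below WT replicates 1, 3 and 4, and the difference was -0.54 ± 0.20 (SE, limma adjusted p = 0.203), or -0.73 without WT replicate 2 (limma adjusted p = 0.0305). MiR-146a, a feedback inhibitor of NF-κB signalling, read 10.09, 9.60, 9.65 and 9.98 in WT and 9.36, 9.80, 9.22 and 9.27 in KO, and only KO replicate 2 reached the WT range. Its difference was -0.42 ± 0.14 (SE, limma adjusted p = 0.161). MiR-223, a miRNA of neutrophils and other myeloid cells, differed by -0.33 ± 0.15 (SE, limma adjusted p = 0.288). MiR-142-3p, found across blood cells, differed by -0.47 ± 0.27, and miR-150 of mature lymphocytes by -0.23 ± 0.15, neither at an unadjusted p under 0.05. The leukocyte list took 1.80% ± 0.361 (SD, n = 4) of the signal in KO and 2.65% ± 0.354 in WT. These shares did not overlap, with WT replicate 2 at 2.21% and KO replicate 2 at 2.19%. On the log2 scale the mean of the list did overlap, at 8.27 in KO replicate 2 against 8.25 and 8.26 in WT replicates 2 and 3. Shares of the endothelial list did not overlap either, with 0.814% to 0.939% in KO and 0.706% to 0.788% in WT.

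**Figure D3:**
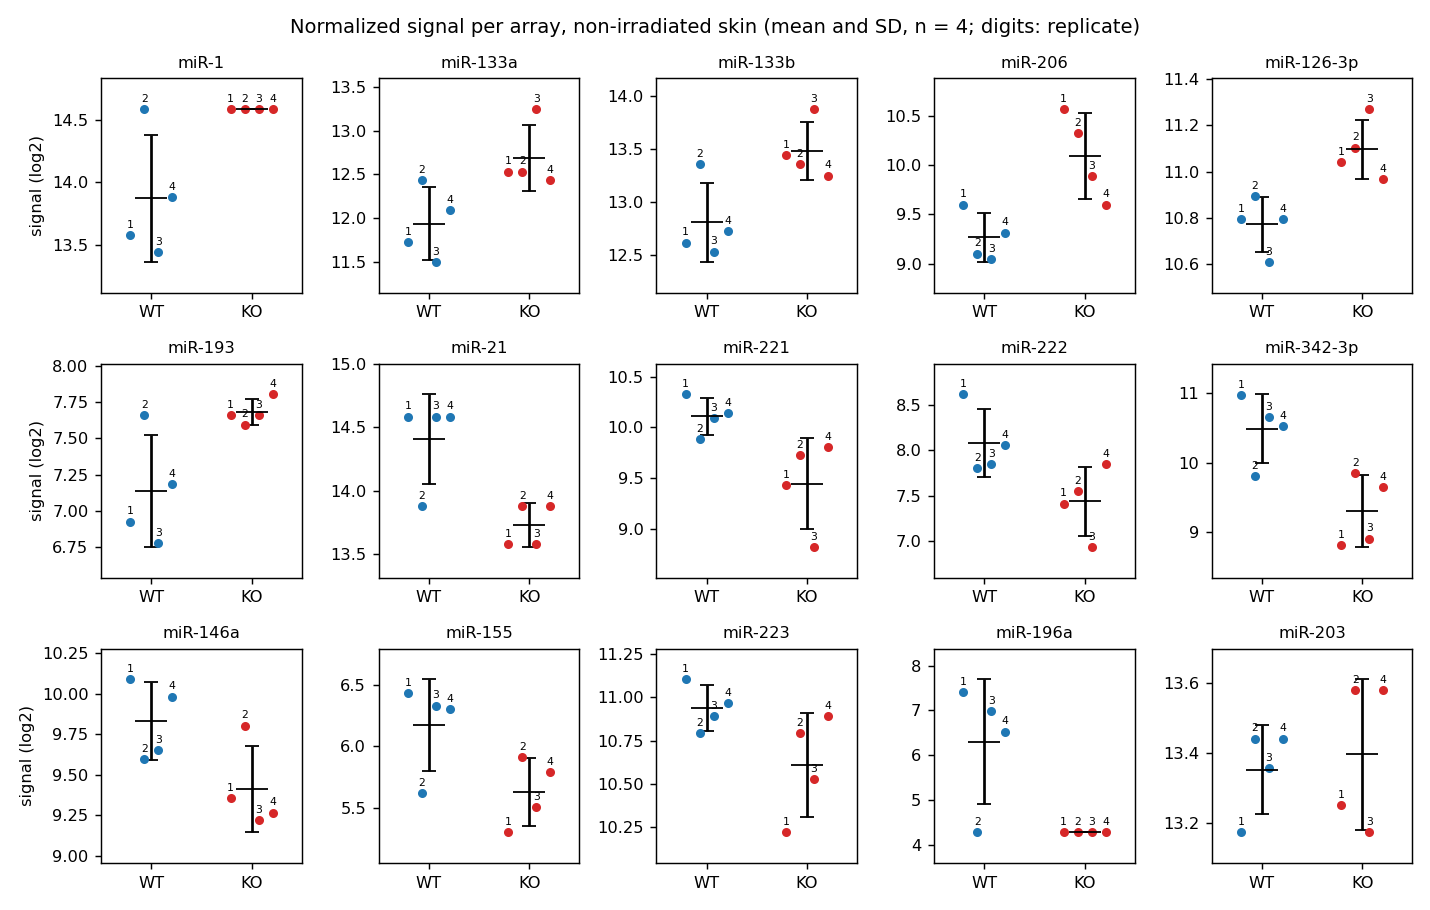
Normalized signal (log2, vertical axes on separate scales) of 15 miRNAs on each no UV array, WT in blue and KO in red, with the replicate number at each point and the mean and SD as bars (n = 4). On this scale miR-126-3p and miR-221 have no overlap between genotypes, and in miR-1, miR-133b, miR-193, miR-342-3p and miR-196a WT replicate 2 lies with the KO arrays.

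MiR-221 and miR-222, which share a seed and act on cell cycle inhibitors and on KIT, were both lower in KO. MiR-221 read 10.33, 9.88, 10.09 and 10.14 in WT and 9.43, 9.72, 8.82 and 9.80 in KO. Every KO array lay below every WT array, and the difference was -0.66 ± 0.18 (SE, limma adjusted p = 0.0635). It was -0.74 without WT replicate 2 (limma adjusted p = 0.0305) and -0.78 without KO replicate 4 (limma adjusted p = 0.0444). MiR-222 read 8.62, 7.80, 7.85 and 8.06 in WT and 7.41, 7.55, 6.93 and 7.85 in KO. Its difference was nearly the same, -0.65 ± 0.20 (SE, limma adjusted p = 0.119), and the groups met at KO replicate 4 and WT replicates 2 and 3. With no normalization the differences of the pair were -0.12 and -0.13.

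MiR-21, the guide strand of the hairpin whose other strand the study follows, is induced in many inflamed and proliferating tissues. It was the second brightest of the 220 miRNAs and read 14.59, 13.88, 14.59 and 14.59 in WT and 13.58, 13.88, 13.58 and 13.88 in KO. WT replicate 2 was level with KO replicates 2 and 4, and the other WT arrays were higher than all KO arrays. The difference was -0.68 ± 0.18 (SE), a ratio of 0.624, with a limma adjusted p of 0.0635. It was -0.86 without WT replicate 2 (limma adjusted p = 0.00539). On the 75th percentile scale it was 23596 ± 4474 (SD, n = 4) units in WT and 14527 ± 3941 in KO. Where miR-1 held the top rank on all 4 KO arrays, miR-21 held it on 3 of 4 WT arrays. The passenger strand, miR-21*, was detected on 2 of 4 arrays of each genotype and was not among the 220.

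MiR-196a, which lies in the Hox clusters and targets Hox mRNAs, had the most negative difference of the 220, -2.02 ± 0.53 (SE, limma adjusted p = 0.0635). It read 7.41, 6.98 and 6.53 in WT replicates 1, 3 and 4, but was at the floor in WT replicate 2 and on all 4 KO arrays, of which 2 had a detection call. MiR-196a passed the detection filter through WT alone, the genotype where it was higher, so its place among the 220 is no support for a difference. The floor fixes the size of this difference. Under a floor of 1 unit it was -3.68, and in the deposited series table the direction was the same. Without WT replicate 2 it was -2.70 (limma adjusted p = 0.000145). MiR-10a and miR-10b, Hox cluster miRNAs of the same list, were both higher in KO, neither at an unadjusted p under 0.05.

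MiR-126-3p, the endothelial miRNA from an intron of Egfl7, had the smallest p of all. It read 10.79, 10.89, 10.61 and 10.79 in WT and 11.04, 11.10, 11.27 and 10.97 in KO, with no overlap. The difference was 0.33 ± 0.07 (SE), a ratio of 1.25, with a limma adjusted p of 0.0552 and a 95% interval from 0.17 to 0.48. Without WT replicate 2 and without KO replicate 4 it was 0.37 each time (limma adjusted p = 0.00685 and 0.0197). Scaled to the 75th percentile, it was 0.20 ± 0.09 (SE, limma adjusted p = 0.277). On that scale the groups overlapped, as WT replicate 2, at 2199 units, exceeded KO replicates 1 and 4, at 1904 and 2143. The 4 irradiated KO arrays, which share the fit, all read 11.10, a tie by rank that narrows the spread estimated for miR-126-3p. Its other strand, miR-126-5p, differed by 0.36 ± 0.28 (SE) and was -0.22 in one slide row and 0.94 in the other. Smooth muscle miR-143 and miR-145 differed by 0.44 ± 0.22 and 0.41 ± 0.22, and erythroid miR-486 and miR-451 by 0.46 ± 0.21 and 0.35 ± 0.32, none at an unadjusted p under 0.05.

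MiRNAs of adipose and oxidative tissue were mostly higher in KO: 6 of 7 members of that list, 4 at an unadjusted p under 0.05, with a median of 0.33. MiR-193, which is miR-193a-3p in RefSeq, read 6.93, 7.66, 6.78 and 7.18 in WT and 7.66, 7.59, 7.66 and 7.80 in KO. WT replicate 2 was level with KO replicates 1 and 3, the other WT arrays were below all KO arrays, and the difference was 0.54 ± 0.17 (SE, limma adjusted p = 0.132). MiR-365, whose genes lie beside miR-193 genes, differed by 0.32 ± 0.14 (SE, limma adjusted p = 0.288). Both strands of the miR-378 hairpin, which lies in Ppargc1b, a coactivator gene of mitochondrial metabolism, were higher. MiR-378* read 6.30, 6.30, 5.91 and 6.02 in WT and 6.53, 6.53, 6.78 and 6.40 in KO, with no overlap on this scale. Scaled to the 75th percentile, WT replicate 2, at 91.1 units, exceeded KO replicates 1 and 4, at 82.8 and 88.4. The log2 difference of miR-378* was 0.42 ± 0.14 (SE, limma adjusted p = 0.161), and that of miR-378 was 0.33 ± 0.15 (SE). Without WT replicate 2, 5 of the 7 had an unadjusted p under 0.05 and 2 passed the adjusted threshold in limma, miR-193 at 0.72 (adjusted p = 0.00685) and miR-365 at 0.46 (adjusted p = 0.0305). MiR-143 belongs to this list and to the smooth muscle one.

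**Figure D4:**
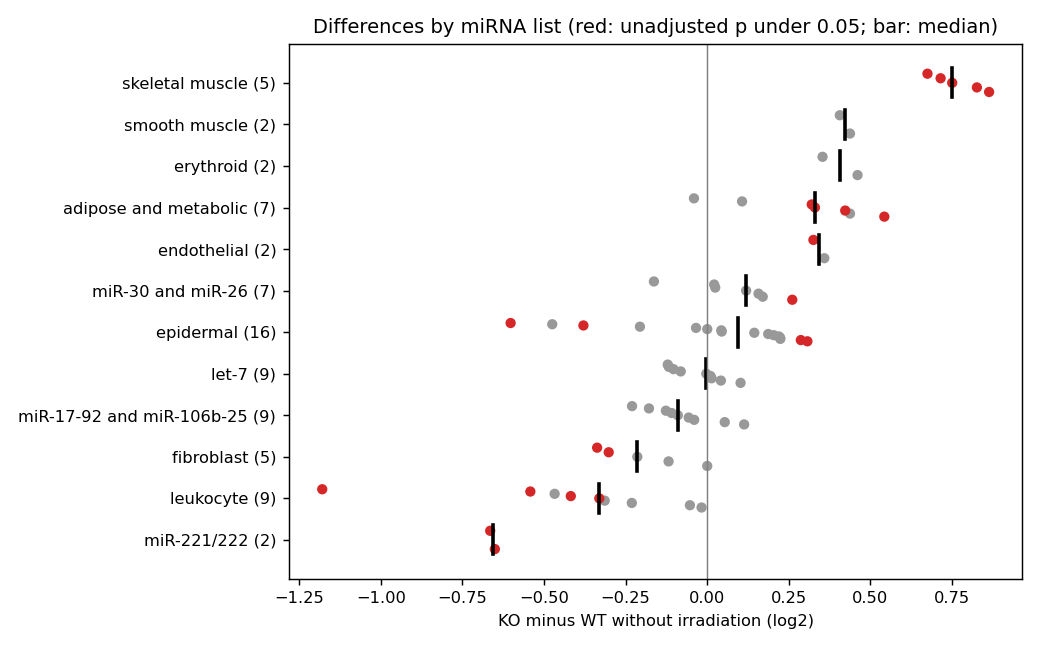
KO minus WT difference without irradiation (log2, horizontal axis) of each miRNA in 12 lists, with the number of miRNAs in brackets, red points for an unadjusted p under 0.05 and black bars for medians. All 5 skeletal muscle miRNAs lie above 0.67 and all 9 leukocyte miRNAs lie below 0, whereas let-7 miRNAs lie between -0.12 and 0.10. Among the 9, miR-342-5p, at -0.02, has signals at or next to the floor.

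Epidermal miRNAs took both directions. Of 16 in the list, 10 were higher and 5 lower in KO, with a median of 0.09. MiR-141 and miR-200a, which share a seed and hold the epithelial state by acting on Zeb mRNAs, were higher by 0.31 ± 0.14 and 0.29 ± 0.13 (SE), and both had a limma adjusted p of 0.288. MiR-31*, the passenger strand of a miRNA raised in hyperproliferative skin, read 7.35, 6.17, 6.05 and 6.40 in WT and 5.37, 6.40, 5.70 and 6.09 in KO. WT replicate 1 was the highest of the 8 arrays and KO replicate 1 the lowest, and the difference was -0.60 ± 0.26 (SE, limma adjusted p = 0.288). Leaving out 1 array gave -0.77 to -0.32, the latter without WT replicate 1. The guide strand, miR-31, differed by -0.47, not at an unadjusted p under 0.05. MiR-34a, a p53 target, differed by -0.38 ± 0.14 (SE, limma adjusted p = 0.204). MiR-203, a differentiation miRNA of suprabasal keratinocytes and among the 5 brightest, differed by 0.04 ± 0.18 (SE), and miR-205 of basal keratinocytes by -0.03 ± 0.09.

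Fibroblast miRNAs were lower or at the floor: 4 of 5 lower, 2 of them at an unadjusted p under 0.05, with a median of -0.21, which turned to 0.29 with no normalization. MiR-214 differed by -0.34 ± 0.10 (SE, limma adjusted p = 0.119) and its neighbour miR-199a-5p, 5598 bases away on chromosome 1, by -0.30 ± 0.14. MiR-29a, a repressor of collagen mRNAs, differed by -0.30 ± 0.12 (SE, limma adjusted p = 0.252). The 9 let-7 miRNAs, a family found in nearly all differentiated cells, had a median of -0.0028 and ran from -0.12 to 0.10, and the 9 of miR-17-92 and miR-106b-25 had a median of -0.09, with none at an unadjusted p under 0.05. MiR-103 and miR-107, which differ by few bases and target Dicer mRNA, differed by -0.01 ± 0.05 and 0.08 ± 0.08 (SE).

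In the miR-30 and miR-26 list 6 of 7 were higher in KO, with a median of 0.12, and miR-30a had a difference of 0.26 ± 0.09 (SE, limma adjusted p = 0.161), or 0.35 without WT replicate 2 (limma adjusted p = 0.00685). Its other strand, miR-30a*, differed by 0.38 ± 0.15, and miR-30e* by 0.26 ± 0.10. MiR-130a, a repressor of the adipogenic factor PPARγ, differed by 0.25 ± 0.11 (SE, limma adjusted p = 0.288). MiR-24 read 12.85, 12.85, 12.85 and 13.06 in WT and 12.78, 12.78, 12.53 and 12.78 in KO. The groups did not overlap on this scale, where ranks tie, though the difference was only -0.18 ± 0.07 (SE, limma adjusted p = 0.202). Scaled to the 75th percentile they did overlap, with 7686 to 9053 units in WT and 6536 to 8404 in KO. The difference was then -0.14 (limma adjusted p = 0.437). MiR-326, a dim miRNA with means of 5.33 in WT and 4.73 in KO, differed by -0.60 ± 0.18 (SE, limma adjusted p = 0.0968), and miR-532-5p, an X-linked miRNA, by -0.28 ± 0.10. They were -0.73 and -0.36 without WT replicate 2 (limma adjusted p = 0.0233 and 0.0309). MiR-500, near miR-532 on chromosome X, differed by -0.22 ± 0.10, and miR-467b by -0.17 ± 0.08 next to the floor. Of the 27 passenger strands among the 220, 10 were higher and 9 lower, with a median of 0.

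The 2 large imprinted or repeat-rich clusters were mostly not detected. Only 7 of 72 miRNAs of the Dlk1-Dio3 cluster on chromosome 12 and 4 of 25 of the Sfmbt2 cluster on chromosome 2 were among the 220, with medians of 0.03 and 0.11. The miR-15 and miR-16 list had a median of -0.07 over 6 miRNAs, miR-23/27/24 one of -0.13 over 5, miR-181 one of 0.06 over 4 and miR-99/100 with miR-125 one of 0.01 over 6. MiR-24 alone in these 4 lists had an unadjusted p under 0.05. The 9 members on the list of doubtful miRNAs, names that may stem from fragments of other RNAs, had a median of 0.12, and none reached that level.

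Members with a detection call on all arrays of one genotype and few of the other stayed at the bottom of the scale. All 4 KO arrays but 1 of 4 WT arrays detected miR-200b*, miR-28*, miR-193* and miR-582-5p. Of these, miR-200b*, miR-28* and miR-193* were at the floor on all 8 arrays, so no difference could be measured, and miR-582-5p differed by -0.03 ± 0.13 (SE). No member was undetected on all 4 arrays of a genotype.

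The slide held WT and KO arrays in both of its rows, 2 of each genotype per row. All 34 miRNAs with an unadjusted p under 0.05 had the same sign in both rows. For miR-342-3p the differences within rows were -1.05 and -1.31, for miR-133b 0.41 and 0.94, and for miR-21 -0.50 and -0.86. As these miRNAs were taken for their difference over both rows, the shared sign is a description.

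After 12 weeks of UVB the same comparison gave other values, from separate arrays on a second slide where WT and KO lay in different rows, so genotype and row cannot be told apart there. Of the 34 miRNAs, 19 had the same sign after irradiation, 6 of 16 higher and 13 of 18 lower ones, and of all 220 it was 105. The 105 include miRNAs with a difference of 0 in both conditions, such as miR-200b*, which have no sign. Without irradiation 12 of the 220 had a difference of 0. Across the 220 miRNAs both sets of differences had a Pearson r of 0.01 and a Spearman rho of 0.03, over miRNAs that share one normalization and are not independent. The muscle list had a median of -0.22 after UVB, and the differences were -0.22 for miR-1, miR-133a and miR-133b, and 0.23 for miR-206. The leukocyte list had a median of -0.08, with miR-342-3p at -0.08. MiR-126-3p differed by -0.12 after UVB, and the interaction of genotype and irradiation for it was 0.45 (limma adjusted p = 0.0345). Its 4 KO arrays after UVB all read 11.10, a tie by rank that narrows the spread behind this p. MiR-127, an imprinted miRNA of the Dlk1-Dio3 cluster, was the other of 2 members with an interaction past the threshold: 0.12 without irradiation and -1.34 after it, an interaction of 1.45 (limma adjusted p = 0.0345).

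**Figure D5:**
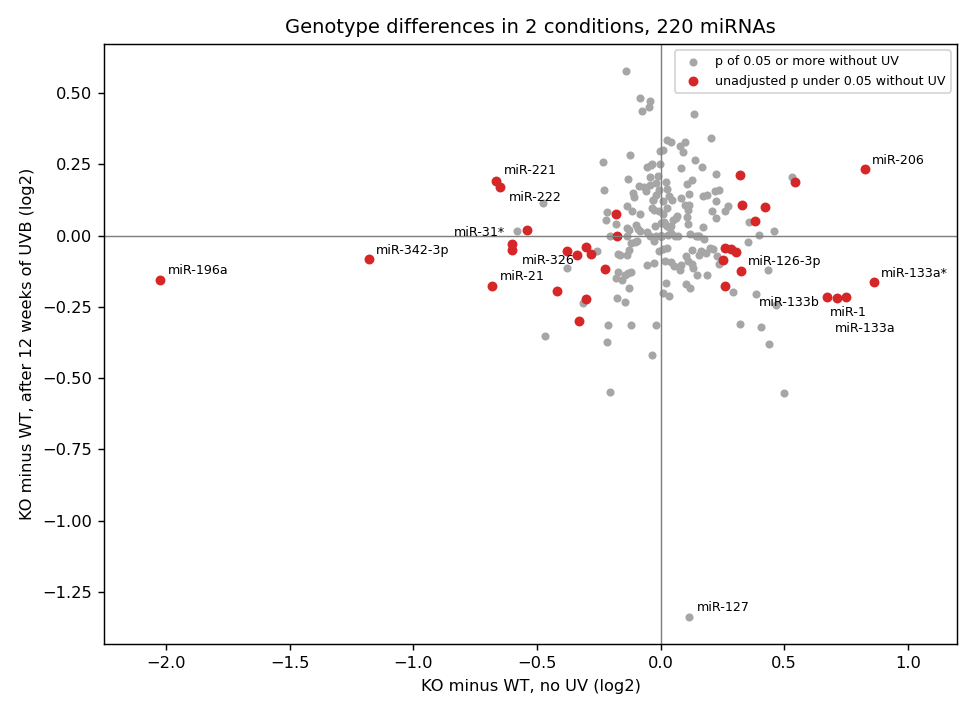
KO minus WT difference after 12 weeks of UVB (log2, vertical axis) against that without irradiation (log2, horizontal axis) for the 220 miRNAs, red for an unadjusted p under 0.05 without irradiation. The points form no common line (Pearson r = 0.01), and miR-342-3p, at -1.18 without irradiation, is at -0.08 after it.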

How the data were processed

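MiRNA of whole dorsal skin was measured on single-colour Agilent arrays, 1 per sample, from 100 ng of RNA (labels). The authors' scanner files, made with version 9.5.3.1 of Agilent Feature Extraction, are deposited as intensity values without normalization between arrays. A deposited table of log2 values, which the authors normalized (invariant set and quantiles), served as an alternative. The mm9 positions come from the scanner files.

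Total signals were quantile normalized over 16 arrays, set to a floor of 19.4 units (a median of the arrays' 5th percentiles among detected miRNAs) and put on the log2 scale, which understates differences of dim miRNAs. One group-means model (limma 3.58.1, R 4.3.3, lmFit and eBayes) was fitted to 228 miRNAs, those with 4 of 4 detection calls in any of the 4 groups (220 members, 3 viral and 5 other mouse miRNAs), with Benjamini-Hochberg adjustment over the 228. The prior had 0.802 degrees of freedom and the residual 12. The fit was tested on simulated data. The number of arrays limits the precision, and p-values measure only the spread between these samples.

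The miRNAs named were up to 12 with the smallest p in each direction, both strands of miR-21, miR-103 and miR-107, the 5 brightest, those detected on 4 of 4 arrays of one genotype and at most 1 of the other, the largest difference in each list, and the other strands of the first set. MiR-365, miR-223, miR-142-3p, miR-150, miR-199a-5p, miR-451, miR-145 and miR-205 were added to them after their values were seen. So were miR-141, miR-200a, miR-500, miR-467b, miR-10a, miR-10b, miR-127 and miR-31. The members and lists were chosen with earlier results of these data known.

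Same-numbered KO and WT arrays had correlations of deviations of -0.31, 0.23, 0.22 and -0.00. With no reference value these cannot tell whether the numbers pair the samples, and the main fit used no pairing. The alternatives changed the normalization, the signal, the filter, the floor, the replicate block, the arrays in the fit, the slide row, the moderation and the threshold, and left out each array in turn.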

Additional observations from a re-analysis of the deposited data

Results flagged for a closer look

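The 8 no UV arrays were searched for a value far from the other 3 of its genotype in each of the 53 named miRNAs, a search that chance alone answers in about 1 group of 20. In all, 10 values stood out on the log2 scale. MiR-21 was 13.88 in WT replicate 2 against 14.59 on the other WT arrays, and miR-155 was 5.62 in WT replicate 2 against 6.30 to 6.43. MiR-582-5p was 4.79 in WT replicate 2 and at the floor on the other WT arrays. MiR-133a was 13.25 in KO replicate 3 against 12.44 to 12.53. MiR-24 was 13.06 in WT replicate 4 against 12.85 and 12.53 in KO replicate 3 against 12.78. In KO replicate 1, miR-103 was 9.88 against 9.98, miR-23a 13.88 against 13.44 and let-7a 13.17 against 13.06. MiR-342-5p was 4.35 in WT replicate 1 and at the floor on the other 3. For 8 of these 10 the other 3 arrays held one value, which normalization by rank or the floor gives, so any deviation passes there. The genotype difference of miR-126-3p without irradiation exceeded that after irradiation by 0.45 (limma interaction, adjusted p = 0.0345). Its 4 irradiated KO arrays were tied by rank at 11.10, which narrows the spread behind this p.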

How the results depend on the processing

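The count of miRNAs past the adjusted threshold, 0, was also 0 with the 75th percentile of all miRNAs, the invariant set, quantiles within the 8 arrays, no filter, the 8 arrays alone in the fit and the slide row. It was 3 with the 75th percentile of miRNAs detected on all arrays, 3 with processed spot signals, 2 with normexp, 9 with the authors' series table, 4 with the filter on all 8 arrays, 4 with a floor of 1 unit, 9 with an intensity trend and robust prior, and 111 (110 higher) with no normalization. By the methods' threshold (p under 0.001 and 1.5-fold) it was 2 unadjusted and 0 adjusted. Among the 53 named miRNAs these counts were 3, 2, 2, 7, 3, 3, 8 and 28 in the same order. With the replicate block, 0 passed and 29 miRNAs had an unadjusted p under 0.05, against 36 of all 228 tested. That count was 145 with no normalization and 26 to 49 under the other alternatives. Leaving out 1 array gave 0 to 17 miRNAs past the threshold (0 to 14 among the named) and 23 to 50 at the unadjusted p. The highest counts came without WT replicate 2, 5 passed without KO replicate 4, and 23 came without WT replicate 1. The causes were not tested.

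Of 1101 differences of the 48 named miRNAs that could be compared, 38 changed sign and 69 newly passed. With no normalization 16 turned positive: miR-214 0.29, miR-146a 0.18, miR-532-5p 0.23, miR-24 0.41, miR-155 0.10, miR-34a 0.082, miR-103 0.54, miR-23a 0.48, let-7c 0.62, miR-582-5p 0.28, let-7a 0.55, miR-18a 0.27, miR-15a 0.31, miR-29a 0.36, miR-24-1* 0.33 and miR-24-2* 0.35. Let-7c was 0.080 with the 75th percentile of detected miRNAs, 0.072 with that of all and 0.075 with the invariant set, and let-7a was 0.0096, 0.0012 and 0.0042. MiR-582-5p was 0.063 with quantiles within the 8 arrays, 0.12 with normexp, 0.088 in the series table and 0.12 with a floor of 1 unit. MiR-125a-3p was -0.17 with normexp. Leaving out 1 array moved miR-103 between -0.045 and 0.019, miR-203 between -0.018 and 0.12, miR-582-5p between -0.11 and 0.10, miR-18a between -0.45 and 0.069, miR-669c between -0.018 and 0.50 and miR-30e between -0.0017 and 0.19. Signals near the floor limit what the dimmest miRNAs can show.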
